A study of Mus musculus with 2 samples.

Results

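Chromosome 2 carried 4448 of the 83676 regions in which an antibody against phosphorylated HLXB9 enriched DNA in mouse insulinoma cells, or 5.32% of the list. The members were taken by chromosome name alone. The chromosome had been picked because earlier results on these data showed its peaks to be narrow and unevenly spread. Its widths, peak numbers and scores come from the same peak calling, so all values here are descriptions and none was tested. The numbers that the caller gave to the chromosome 2 peaks ran from 43274 to 47721 with 0 breaks, and no 2 peaks overlapped.

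The cells were MIN6-4N, a mouse insulinoma (β-cell tumour) line, transfected with the plasmid pcDNA3.1-myc-his-HLXB9, so that the factor was overexpressed. Chromatin was taken 48 hours after transfection. In chromatin immunoprecipitation and sequencing (ChIP-seq), DNA bound by a protein is pulled down with an antibody and sequenced. There was 1 ChIP library (anti-HB9PO4) and 1 input library without antibody, both from transfected cells, with reads of 36 bp. With 1 library on each side there is no replicate error, and neither untransfected cells nor a control antibody were part of the comparison. The depth behind the peaks is unknown, because the list gives no tag numbers, and intervals given below cover counting error only. These intervals treat peaks and windows as independent, so they are too narrow where either cluster.

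HLXB9, also named MNX1 or HB9, is a homeodomain transcription factor needed for the development of pancreatic β-cells and motor neurons. Homeodomain factors bind short AT-rich motifs that occur very often in a genome, and only some of these sites are occupied in a given cell. Mammalian chromosomes alternate between gene-rich and gene-poor stretches of megabase size, and mouse chromosome 2 holds the Hoxd cluster, large olfactory receptor clusters and the genes of several islet factors, among them Pax6, Neurod1, Nkx2-2 and Foxa2. No gene was matched to a window or peak below, because no annotation or sequence of the build of the peak list, mm9, was used here. All positions are mm9, counted from 1.

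Peaks on chromosome 2 were fewer per length and narrower than on nearly every other autosome, with scores nearly as high. From its first to its last peak there were 24.9 peaks per Mb. The 95% Poisson interval, 24.2 to 25.6, assumes random placement and is too narrow, because peaks clustered. Among the 19 autosomes this density was the second lowest, between chromosome 18 (22.8) and chromosome 14 (26.9). The median width was 551 bp (interquartile range 437 to 716 bp), again the lowest but for chromosome 18 (528 bp), and the other 18 autosomes ranged up to 756 bp. Peaks covered 1.51% of this length, against a median of 2.83% over the other autosomes.

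The score is the authors' own and was taken as −10 × log10 of the p-value that the peak caller assigned, with a lowest value of 30.01 and a highest of 520.1 on chromosome 2. The median score was 38.7, and the other autosomes had medians from 38.4 to 39.8. Scores of 50 or more were found for 1030 peaks, or 23.2% (95% Wilson interval 21.9% to 24.4%), beside 24.1% of all autosomal peaks. Scores of 100 or more were found for 67 peaks, or 1.51%, beside 1.65% of all autosomal peaks. Both shares lay near those of the autosomes as a whole.

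The narrowness was seen in each of 4 bands of score from 30 to 200. Peaks with a score from 30 to 40, the lowest band with 2417 members, had a median width of 485 bp, where the median over the other autosomes was 598 bp. Those from 40 to 50 had a median of 589 bp, beside 686 bp. The 963 peaks from 50 to 100 had a median of 698 bp, beside 822 bp, and the 61 peaks from 100 to 200 one of 1008 bp, beside 1264 bp. In each of the 4 bands only chromosome 18 had a lower median than chromosome 2. Peaks of at least 2 kb numbered 3 (0.0674%), beside 1.74% of all autosomal peaks.

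The 177 complete windows of 1 Mb held 4394 of the peaks, counted by midpoint. The other 54 lay in the incomplete windows at the ends, 29 before and 25 after. A window was called sparse with at most 24 peaks and dense with at least 45, which are the 25th and 75th percentiles over 2211 windows on the other 18 autosomes. Sparse windows made up 106 of the 177, or 59.9% (Wilson interval 52.5% to 66.8%), beside 27.0% of the windows of the other autosomes. Dense windows numbered 31, or 17.5% (12.6% to 23.8%), beside 27.0%. Windows in between numbered 40, or 22.6% (17.1% to 29.3%). This was a smaller share than on any of the other 18 autosomes, where it ran from 27.9% to 79.8%. The interval overlapped that of chromosome 18, the next lowest (19.5% to 38.2%). Chromosome 18 had a like share of sparse windows (60.5%), yet 11.6% of its windows were dense, and its densest held 59 peaks. The densest on chromosome 2 held 90.

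**Figure D1:**
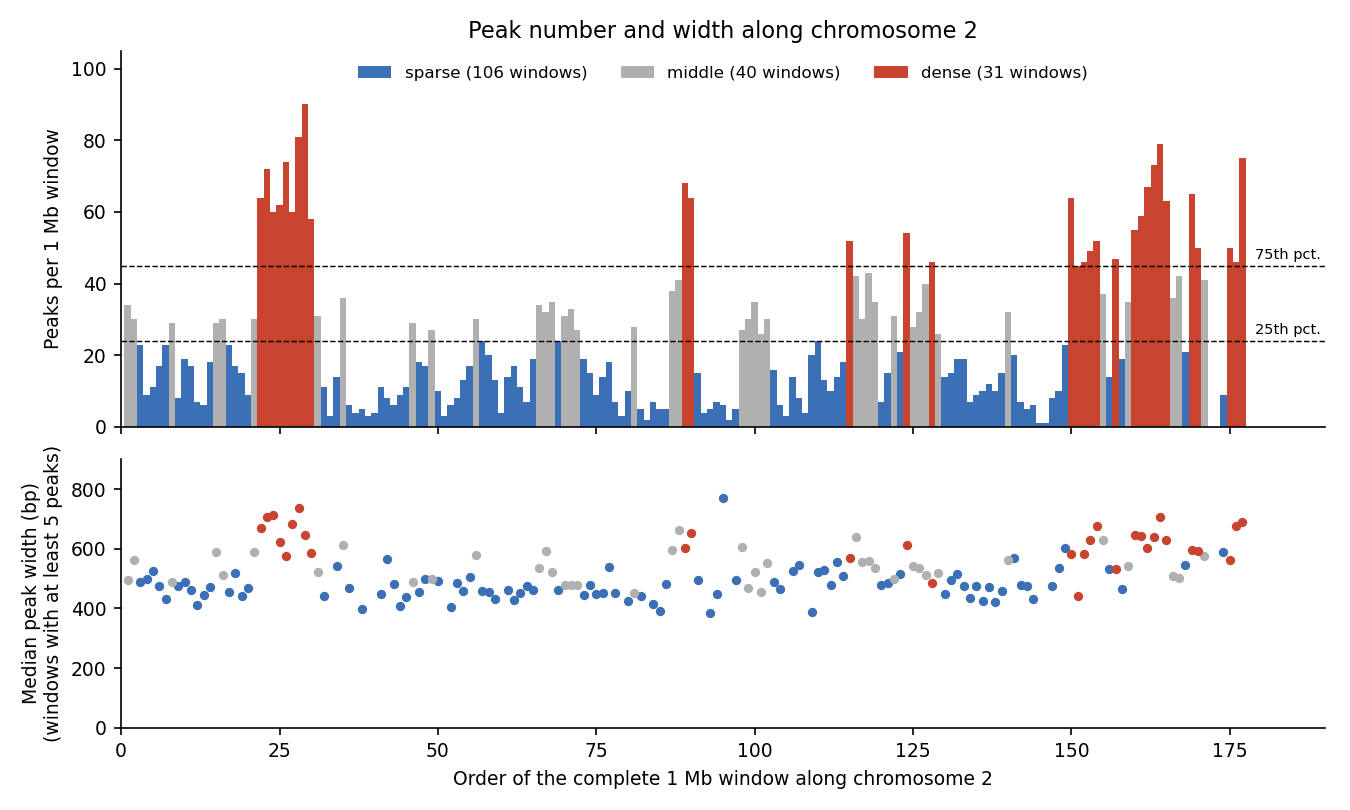
Peaks in each of the 177 complete 1 Mb windows of chromosome 2 in order (upper panel) and the median peak width in bp of the windows with at least 5 peaks (lower panel). Colours mark sparse (at most 24 peaks), middle and dense (at least 45 peaks) windows, and the dashed lines are the 25th and 75th percentiles of the other 18 autosomes; dense windows stand in groups, the tallest group reaching 90 peaks, between long sparse stretches.

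The median window of chromosome 2 held 19 peaks, the lowest of the 19 autosomes, while its 90th percentile of 58.4 was above the median of 55 among the others. The 18 fullest windows held 28.2% of the peaks counted in windows. The same share of windows held 15.1% to 23.0% on the other autosomes. The 88 emptiest windows held 18.5%, where the same share of emptiest windows on the other autosomes held 24.2% to 39.9%. The chromosome was thus low over most of its length and high in a few places, and not low throughout.

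The variance of the window counts was 16.5 times their mean on chromosome 2, where 1 would be random placement. Chromosome 7 followed with 11.5, and chromosome 14, of like density, had 10.0. Because this ratio grows with the mean, the excess coefficient of variation was also computed (the square root of variance minus mean, divided by the mean). It was 0.79 on chromosome 2 and from 0.20 to 0.60 on the others, chromosome 18 being the nearest. Neighbouring windows were alike: the correlation of a window's count with that of the next was 0.74 over the 177 windows, which share 1 pair of libraries, and 0.32 to 0.72 on the others. The mean difference between neighbouring windows, 10.5 peaks, was nevertheless the same as the median of the other autosomes, 10.5.

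**Figure D2:**
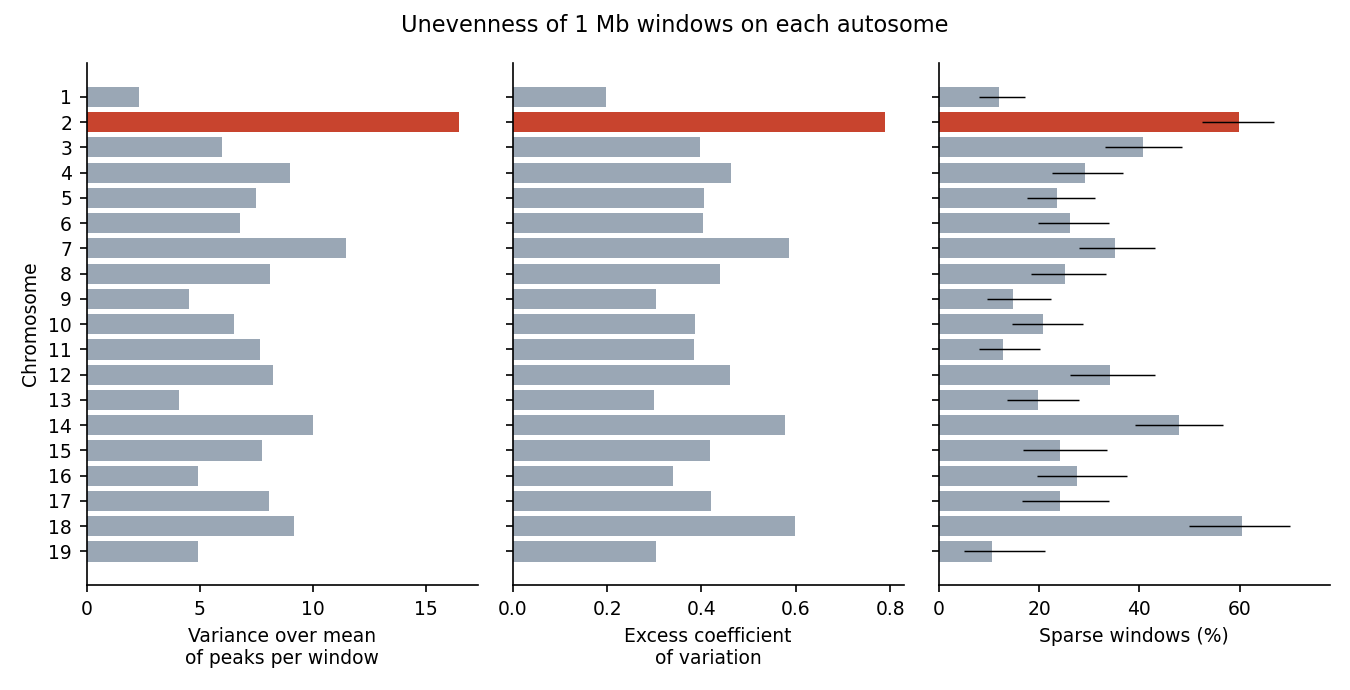
Bars give, for each autosome, the variance over the mean of peaks per 1 Mb window, the excess coefficient of variation, and the percentage of sparse windows with its 95% Wilson interval as a line. Chromosome 2 (red) has the highest variance ratio (16.5) and excess coefficient (0.79), while chromosome 18 has a like percentage of sparse windows (60.5% beside 59.9%).

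Consecutive windows, of whatever class, were then joined into blocks. A block is at least 3 consecutive windows on the same side of 35 peaks, the median window of the other autosomes. Chromosome 2 had 15 blocks. The 9 blocks below the median took in 126 windows and 1824 peaks, and the 6 blocks at or above it took in 34 windows and 1961 peaks. The remaining 17 windows formed 13 shorter runs.

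The first high block had the most peaks per window and the widest peaks of the 15 blocks. It lay at 25000001 to 34000000 and held 621 peaks in 9 windows, a mean of 69.0 per window. Every one of its windows was dense, with counts of 64, 72, 60, 62, 74, 60, 81, 90 and 58 in order along the chromosome. These 9 windows were 5.08% of the windows and held 14.1% of the peaks. The median width was 659 bp and the share scoring 50 or more was 27.2% (23.9% to 30.8%). Window medians of width inside the block went from 575 bp to 737 bp, so that even its narrowest window lay above the chromosome's median of 551 bp. It held 2 of the 3 peaks of at least 2 kb on chromosome 2.

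The second high block, at 90000001 to 94000000, held 211 peaks in 4 windows with counts of 38, 41, 68 and 64. Its share of peaks scoring 50 or more was 35.1% (29.0% to 41.7%), the highest of the 15 blocks, at a median width of 619 bp. The other 4 high blocks lay beyond 153 Mb. From 153000001 to 159000000 there were 293 peaks in 6 windows (48.8 per window), with a median width of 593 bp. From 162000001 to 171000000 there were 509 peaks in 9 windows (56.6 per window), with a median width of 607 bp. From 172000001 to 175000000 there were 156 peaks in 3 windows (52.0 per window), and from 178000001 to 181000000 there were 171 peaks in 3 windows (57.0 per window), with medians of 591.5 and 651 bp. Shares scoring 50 or more in these 4 blocks ran from 21.1% to 28.8%, and their intervals overlapped.

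The long low blocks lay between these. The longest, at 39000001 to 71000000, was 32 windows long and held 440 peaks, 13.8 per window. On the other autosomes the longest run below 35 peaks was 4 to 24 windows. When each chromosome was split at its own median, the longest low run on chromosome 2 was 10 windows, within the 7 to 19 of the others. Low blocks of 21 windows lay at 4000001 to 25000000 (19.2 peaks per window) and at 132000001 to 153000000 (12.8 per window). A block of 18 windows at 72000001 to 90000000 had 14.6 per window, one of 14 at 104000001 to 118000000 had 14.7 and one of 9 at 94000001 to 103000000 had 11.2. Short low blocks of 4 windows followed the first high block, at 34000001 to 38000000 (59 peaks), and lay at 123000001 to 127000000 (74 peaks). The emptiest, at 175000001 to 178000000, held 9 peaks in 3 windows with counts of 0, 0 and 9.

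Low blocks had narrower peaks than high ones. Leaving out the block with 9 peaks, median widths in the low blocks were 470 to 512 bp, and those in the 6 high blocks 591.5 to 659 bp, with no overlap. Widths and peak numbers come from 1 calling, so this is a description. Among peaks with a score from 30 to 40, where scores were alike, the ranges were 432 to 493 bp and 464.5 to 613 bp and did overlap. In that band the block from 25 to 34 Mb, at 613 bp, stood above the next, the block from 178 to 181 Mb at 567 bp. The block from 172 to 175 Mb, at 464.5 bp, was as narrow as low blocks. The share scoring 50 or more was 11.1% to 22.8% in the 9 low blocks and 21.1% to 35.1% in the high ones.

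**Figure D3:**
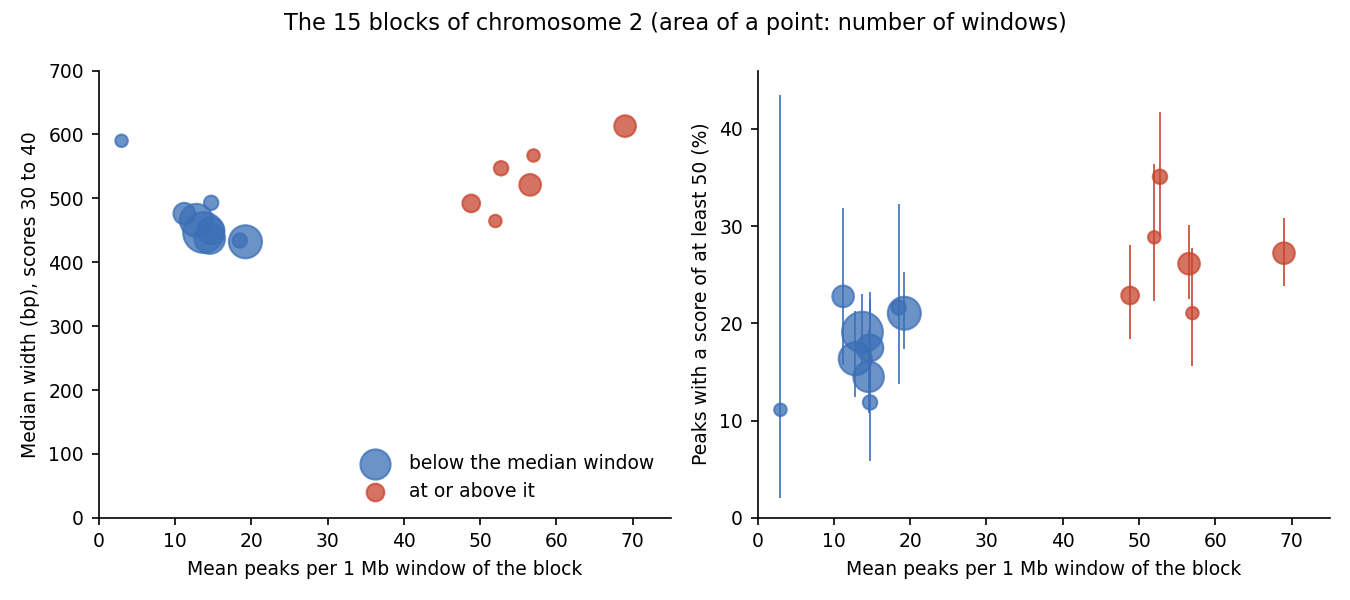
Each point is 1 of the 15 blocks of chromosome 2, placed by its mean peaks per 1 Mb window and, on the vertical axes, by the median width in bp of its peaks with a score from 30 to 40 (left) or its percentage of peaks scoring 50 or more, with 95% Wilson intervals (right). The block with 69.0 peaks per window also has the widest peaks (613 bp), and the point at 3 peaks per window rests on 9 peaks.

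Between 118 and 132 Mb the windows changed sides often. Runs of 1 or 2 windows at or above the median there had means of 47.0 (118000001 to 120000000), 39.0 (121000001 to 123000000), 54.0 (127000001 to 128000000) and 43.0 (130000001 to 132000000). Single high windows also stood at 38000001 to 39000000 with 36 peaks, at 71000001 to 72000000 with 35 and at 103000001 to 104000000 with 35. These 3 were at or just above the limit of 35, whereas the 6 high blocks had means of 48.8 or more. Single low windows parted the distal high stretches, with 14 peaks at 159000001 to 160000000, 19 at 161000001 to 162000000 and 21 at 171000001 to 172000000.

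A boundary is a window border at which the mean of the 3 windows after and the mean of the 3 before differ by at least 20 peaks and by more than at nearby borders. Chromosome 2 had 13 boundaries, 8 upward and 5 downward, the highest number of the 19 autosomes (3 to 12 on the others). Per 100 windows this was 7.34, which 5 autosomes exceeded, and the other autosomes together had 5.92. The rate was thus inside the range of the others, and some steps were large. Steps of at least 40 peaks, a limit not set in advance, occurred 5 times on chromosome 2 and 9 times on the other 18 autosomes together. The 5 are not separate events, since those at 25 and 34 Mb bound 1 block and those at 90 and 94 Mb another. The largest step, 61.3 peaks, exceeded the largest elsewhere, 50.3 on chromosome 12.

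The largest step was the downward end of the first high block, at 34 Mb. Counts in the 3 windows before it were 81, 90 and 58, and in the 3 after it 31, 11 and 3. Median width went from 661 bp to 453 bp and the share scoring 50 or more from 31.4% (25.8% to 37.7%) to 11.1% (4.84% to 23.5%), the latter over 45 peaks. The window at 34000001 held 31 peaks, so the fall took more than 1 window. At 100 kb resolution the place that best split the counts was 34.8 Mb, with 20 peaks in the 500 kb before it and 3 in the 500 kb after it. The upward start of the same block, at 25 Mb, was a step of 47.3 peaks, with counts of 15, 9 and 30 before and 64, 72 and 60 after. Median width went from 550.5 bp to 703 bp. Its finer place was 24.5 Mb, with 9 peaks in the 500 kb before and 21 in the 500 kb after.

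The block from 90 to 94 Mb had sharp borders on both sides. At 90 Mb counts went from 7, 5 and 5 to 38, 41 and 68, a step of 43.3 peaks. Median width went from 463 bp to 609 bp, and the share scoring 50 or more was 11.8% of 17 peaks before (3.29% to 34.3%) and 36.7% of 147 after (29.4% to 44.8%). The finer place was 90.2 Mb, with 3 and 20 peaks in the 500 kb on either side. At 94 Mb counts went from 41, 68 and 64 to 15, 4 and 5, a fall of 49.7 on average, and median width went from 633 bp to 482 bp.

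In the distal part the second largest step, 54.0 peaks upward at 178 Mb, followed the 2 empty windows and 1 with 9 peaks. The longest stretch of the chromosome without a peak, 2.91 Mb (174879789 to 177787583), lies there, and whether reads can be placed in it was not tested. At 169 Mb the mean fell from 71.7 to 33.0 and the median width from 661 bp to 523 bp. At 153 Mb counts went from 8, 10 and 23 to 64, 45 and 46 while the median width was 563 bp before (41 peaks) and 549 bp after (155 peaks). The steps at 164, 118 and 101 Mb were upward, by 26.3 to 30 peaks. The last 3 boundaries, at 106, 133 and 69 Mb, had steps of 21.3 to 22.0 peaks. Not every boundary parts 2 blocks. The one at 164 Mb lies inside the high block from 162 to 171 Mb, and its finer place was 162.7 Mb. Those at 101, 106, 133 and 69 Mb lie inside low blocks.

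**Figure D4:**
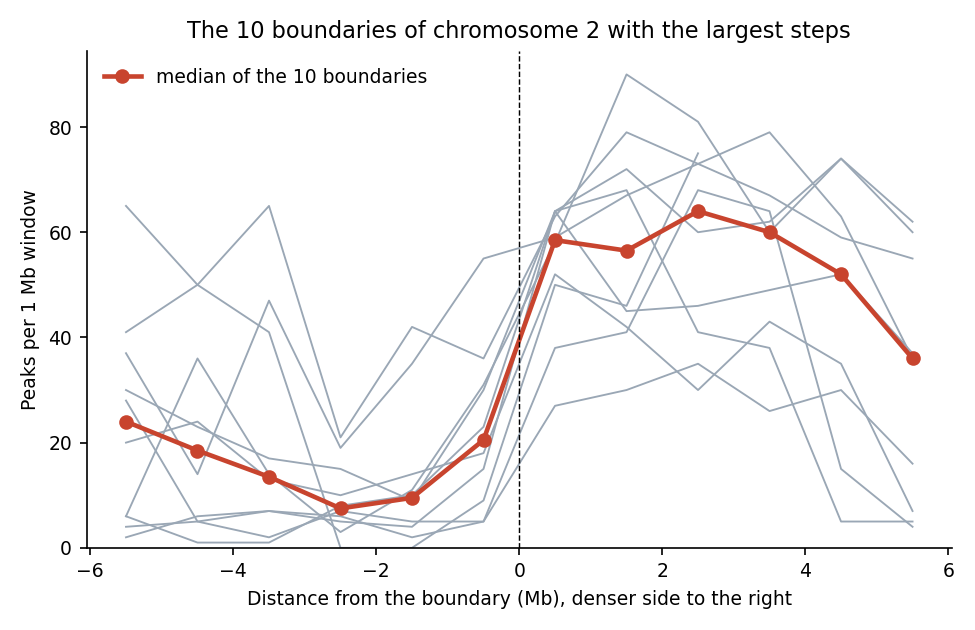
Peaks per 1 Mb window against distance in Mb from each of the 10 boundaries of chromosome 2 with the largest steps, turned so that the denser side is on the right; grey lines are single boundaries and the red line is their median. The median goes from 20.5 peaks in the last window on the sparse side to 58.5 in the first on the dense side, and is 7.5 to 9.5 in the windows just before.

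By the median, width changed less across these boundaries than across those of the other autosomes pooled, although the steps in number were large. The other boundaries were not split by chromosome, so chromosomes of like density were not compared singly. The denser side had the higher median width at 12 of 13 boundaries of chromosome 2, the exception being 153 Mb, and at 96.1% of the 129 boundaries elsewhere with peaks to compare. The median difference was 68 bp on chromosome 2 and 152.5 bp elsewhere. Among peaks with a score from 30 to 40 the denser side was wider at 10 of 13, by a median of 46 bp, and at 92.2% elsewhere, by a median of 134.5 bp. The share scoring 50 or more was higher on the denser side at 10 of 13, by a median of 7.44 percentage points, and at 77.5% elsewhere, by a median of 4.94. Flanks of some neighbouring boundaries share windows, and the differences between chromosomes were not tested.

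Taken by class of window, peak number differed more between dense and sparse windows than on the other autosomes pooled, and width differed less than on most. Dense windows of chromosome 2 held 61.0 peaks on average and sparse ones 11.2, a ratio of 5.42, beside 3.42 on the other autosomes pooled. Chromosome 7, with 1809 peaks in 33 dense and 507 in 52 sparse windows, had a higher ratio than chromosome 2. For peaks scoring 50 or more the chromosome 2 averages were 16.7 and 1.93 per window, a ratio of 8.62, beside 4.75 in the pool. Peaks covered 4.12% of the dense and 0.587% of the sparse windows. Median width was 629 bp in dense windows (interquartile range 487 to 790 bp), 536 bp in middle ones and 477 bp in sparse ones (404 to 598 bp). The dense median was 1.32 times the sparse one, a ratio that 14 of the other 18 autosomes exceeded. Chromosomes 14 and 18, of like density, had lower ratios of 1.31 and 1.20.

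Scores followed the classes too. The median score was 39.97 in dense, 38.5 in middle and 37.5 in sparse windows. Scores of 50 or more were found for 27.4% of peaks in dense windows (25.4% to 29.4%). The share was 22.3% in middle windows (20.2% to 24.7%) and 17.2% in sparse windows (15.2% to 19.4%). The dense and sparse intervals did not overlap, though they are too narrow where peaks cluster. The other autosomes pooled had a like order, with shares of 27.0%, 22.9% and 19.4% and median scores of 40.15, 38.9 and 38.05. The share reaching 100 was nearly equal between classes, at 1.43% in dense windows (0.984% to 2.07%) and 1.34% in sparse ones (0.828% to 2.17%), beside 1.65% of all autosomal peaks. On the other autosomes pooled these shares were 2.07% in dense and 1.02% in sparse windows.

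Because chromosome 2 has more sparse windows, its peaks were set beside those of other autosomes in windows with like numbers of peaks, using only scores from 30 to 40. In windows with 1 to 10 peaks the chromosome 2 median was 439 bp, above 3 of the 4 other autosomes that had at least 20 such peaks (429 to 497 bp, median 435 bp). With 11 to 24 peaks it was 451 bp, below all 18 others (460 to 714 bp). With 25 to 45 peaks it was 470.5 bp, also below all 18 (473 to 682 bp, median 563 bp). With 46 or more peaks it was 550 bp, above chromosome 18 alone (515 bp), and the median of the others was 688 bp. In these fullest windows the gap to the other autosomes was widest, and without the block from 25 to 34 Mb the chromosome 2 value was 516 bp.

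The scores did not show the same gap. In windows with 46 or more peaks 27.7% of chromosome 2 peaks scored 50 or more, more than on 11 of the other 18 autosomes (24.7% to 30.9%). With 25 to 45 peaks the share was 22.0% and with 11 to 24 peaks 17.6%, inside the ranges of the others (20.1% to 24.9% and 15.0% to 23.9%). In windows with 11 or more peaks, chromosome 2 was thus lowest or second lowest in width and inside the range in score.

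**Figure D5:**
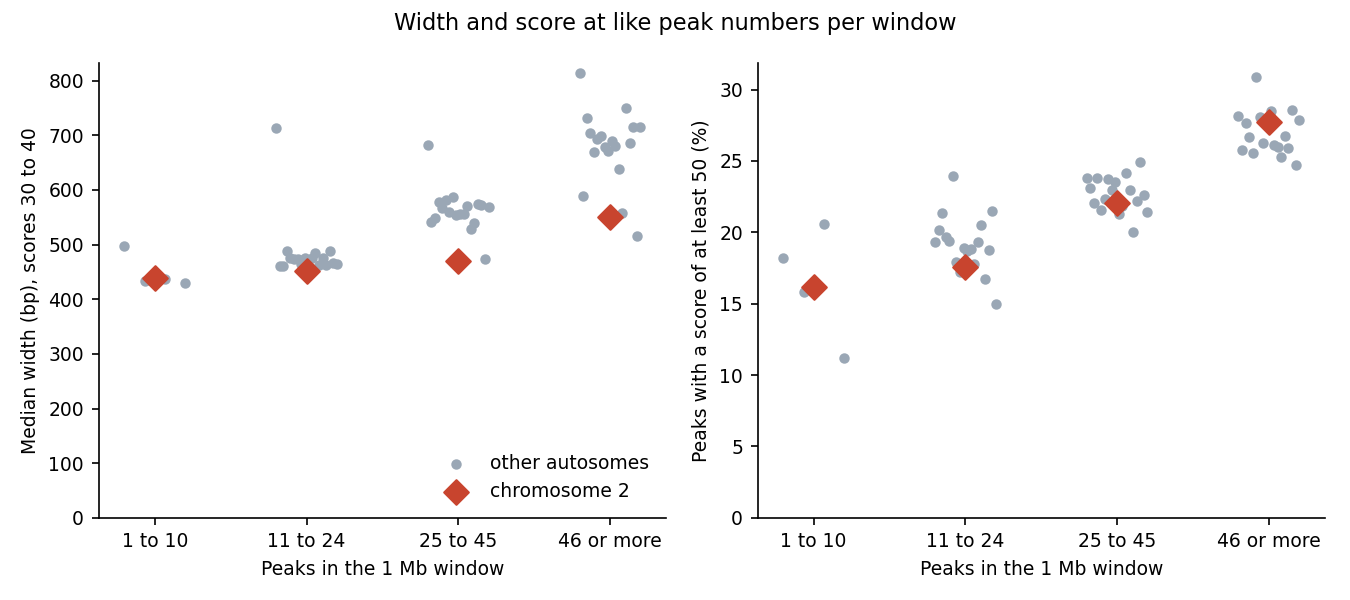
Median width in bp of peaks with a score from 30 to 40 (left) and percentage of all peaks scoring 50 or more (right), by the number of peaks in the 1 Mb window; each grey point is 1 of the other autosomes with at least 20 peaks of that score in the class and the red diamond is chromosome 2. In the fullest windows chromosome 2 is at 550 bp and 27.7%, low in width and inside the range in score.

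Peaks lay closer together in dense than in sparse windows, which follows from how these classes were defined. The gap to the next peak had a median of 10.2 kb in dense and 46.5 kb in sparse windows of chromosome 2. On the other autosomes pooled these medians were 10.963 and 36.15 kb. The gap was at most 10 kb for 49.5% of chromosome 2 peaks in dense windows and 18.4% in sparse ones. The pooled shares were close to these, at 46.9% and 18.3%. Over the whole chromosome 35.8% of peaks had the next within 10 kb (34.4% to 37.2%) and 6.32% within 1 kb (5.64% to 7.07%). Both shares were inside the range of the other autosomes (29.4% to 43.4% and 4.45% to 7.74%), despite the low number of peaks per Mb. After the stretch near 175 Mb the longest without a peak were 1.28 Mb (147442351 to 148722721), 1.09 Mb (149350582 to 150445138), 0.749 Mb (95276477 to 96025379) and 0.723 Mb (42080332 to 42803390). The stretch from 149350582 starts right after the peak with the second highest score of the chromosome.

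Peaks scoring 200 or more numbered 6 on chromosome 2, or 0.135%, beside 0.113% of all autosomal peaks. Of these, 4 were in sparse windows, 1 in a middle window, 1 in the incomplete last window and 0 in dense ones. The 4 include the peaks scoring 262.4 and 520.1, which share a window. Of the 88 such peaks on the other autosomes, 13 were in sparse, 40 in middle and 32 in dense windows. Sparse, middle and dense windows held 27.1%, 29.9% and 43.0% of all chromosome 2 peaks in complete windows. On the other autosomes they held 12.5%, 44.8% and 42.7%. With 6 peaks, no difference in placement was tested. Among the chromosome 2 peaks scoring 100 or more in complete windows, 16 were in sparse, 22 in middle and 27 in dense windows. These were 1.34%, 1.68% and 1.43% of the peaks of each class, with overlapping intervals, beside 1.65% of all autosomal peaks. The highest-scoring peak, at 98506307 to 98507579, reached 520.1 and was 1273 bp wide. It stood in a window with 6 peaks, 4 of them in a row within 98502107 to 98507579, with scores of 41.0, 262.4, 129.0 and 520.1. The second, at 149350029 to 149350581, scored 473.7 over 553 bp and was the only peak of its 1 Mb window, with 0 others within 100 kb. The third, at 181663566 to 181664361, scored 333.0 over 796 bp in the incomplete last window.

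The next was at 119981226 to 119981845, with a score of 307.9 over 620 bp and 9 other peaks within 100 kb. A peak of 425 bp at 57481788 to 57482212 scored 255.6 in a window with 13 peaks. The remaining 4 of the 10 highest scores were lower, from 153.3 to 184.9, and each was at least 1284 bp wide. Of these, 157769381 to 157770713 (184.9) and 30329147 to 30330430 (163.2) lay in dense windows. The others, 69560496 to 69561798 (168.8) and 90729073 to 90730880 (153.3), lay in middle windows. Repeated sequence was not looked up at any of these positions.

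The 5 widest peaks were all in dense windows, which held 43.0% of the chromosome 2 peaks in complete windows. Dense windows had the wider peaks on the other autosomes pooled too, with a median of 757 bp beside 520 bp in sparse ones. The widest, at 31669749 to 31672418, was 2670 bp wide with a score of 112.6 and lay in a window with 81 peaks. It ranked 441st by width in the whole list. The next were 2155 bp (166472029 to 166474183, score 109.1), 2141 bp (33832378 to 33834518, score 114.9), 1972 bp (156865772 to 156867743, score 106.6) and 1949 bp (127336518 to 127338466, score 73.9). All of these 5 were in windows with 49 or more peaks.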

How the data were processed

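The authors called peaks with MACS (version written as 1.42) against mm9, per the submitters' processing notes. No source used here names an aligner, a read filter or a tag number. The deposited list gives each peak's position and a score without a header, which was taken as −10 × log10 of the p-value. That it sets the ChIP against the input library was inferred from the 2 samples. Chromosome 2 peaks were selected, and 1 Mb windows lying wholly inside the range of peaks of an autosome were counted by midpoint. Wilson and exact Poisson intervals are at 95%. The window, block and joining steps were tested on simulated data. The members, classes and rules were chosen with earlier results of these data known. Named were the 10 highest scores, 5 widest peaks, 5 longest empty stretches, the blocks and the 10 largest boundaries; the last 3 boundaries were named in addition after their values were seen. Finer boundary places, the excess coefficient of variation and the count of steps of at least 40 peaks were added after seeing the data. So were the omission of 1 block and the classes of peaks scoring 200 or more on other autosomes. Gene and promoter parts were not run, since no mm9 annotation was used here. Software was scipy 1.17.1, matplotlib 3.10.9, pandas 2.3.3 and numpy 2.4.6 under Python 3.11.15.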

Additional observations from a re-analysis of the deposited data

How the results depend on the processing

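Chromosome 2 had the highest variance over mean of the 19 autosomes in every setting tried for it. The value was 6.86 at a minimum score of 50, 14.1 with peaks within 1 kb joined, 9.05 in windows of 0.5 Mb, 28.3 in windows of 2 Mb, 16.2 in windows shifted by 0.5 Mb and 13.98 without the block from 25 to 34 Mb, which was left out after it was seen. In the same order the ratio of dense to sparse median width was 1.25, 1.38, 1.32, 1.29, 1.33 and 1.27. At a minimum score of 50 there were 1030 peaks, 5.77 per Mb, with a median width of 705 bp. Joining gave 23.3 per Mb, a median of 562 bp and 29.7% of dense-window peaks with a score of at least 50. Without the block the median was 534 bp. The number of blocks was 31 in windows of 0.5 Mb, 7 in windows of 2 Mb and 27 when sides were split at the chromosome's own median, and that of boundaries 21 and 7 in the first 2 of these. For boundaries in other window sizes the limit of 20 peaks was scaled to the mean count. With all scores, median widths in windows with 1 to 10, 11 to 24, 25 to 45 and 46 or more peaks were 464.5, 487, 533 and 634 bp. The cause was not tested where values moved. Planned promoter alternatives were not run. No paired analysis was possible because there is 1 library per group. Unknown tag numbers limit all statements on weak peaks, and a window without a peak is not shown to be unbound.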
